A study of Homo sapiens with 4 samples.

Results

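CCL2, CCL5, CCL7, CCL8, CCL20, CCL28 and CX3CL1 are the CC and CX3C chemokines described here, 7 of the 25992 gene names on the array. Their probes were taken by gene name, without control probes, and each gene has 1 probe. The genes themselves were picked from their measured levels on these same arrays, so those levels are given as a description, with no test that supports the choice. Human proximal tubular cells (HPTCs) of the lines HK-2 and RPTEC/TERT1 were measured on 1-colour Agilent arrays, with 2 arrays per line. HK-2 cells are proximal tubule cells immortalised with human papillomavirus genes, and RPTEC/TERT1 cells are immortalised with telomerase, so that each label stands for 1 line in culture. Every culture was starved for 24 h before a further 24 h in IL-1β (10 ng/mL) plus empagliflozin (Empa, 500 nM), an inhibitor of the sodium-glucose cotransporter SGLT2. Untreated arrays and arrays of IL-1β without Empa were not analysed here, and no value below is an effect of IL-1β or of Empa.

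Chemokines are small secreted proteins that guide leukocytes along a gradient by binding G protein-coupled receptors. The CC and CX3C names refer to the spacing of the first cysteines in the protein. In the kidney, tubular cells that sense injury or cytokines such as IL-1β are a source of chemokines, and several of these genes carry binding sites for NF-κB, a transcription factor that IL-1 signalling activates.

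CCL2, CCL7 and CCL8 attract monocytes and lie near each other on chromosome 17. On GRCh37, the build that the array files name, the CCL2 probe lies at chr17:32584050-32584109 on the plus strand, the CCL7 probe at chr17:32598800-32598859 and the CCL8 probe at chr17:32648102-32648161, both also on the plus strand. There are 14691 bases between the CCL2 and CCL7 probes and 49243 bases between the CCL7 and CCL8 probes. The CCL5 probe lies 1551171 bases beyond that of CCL8, at chr17:34199332-34199391 on the minus strand. The other probes lie at chr2:228681100-228681836 for CCL20 (plus strand, over 737 bases, longer than the 60 bases of the probe), at chr5:43381925-43381984 for CCL28 (minus strand) and at chr16:57418025-57418084 for CX3CL1 (plus strand). The first 30 bases of 3 probes, as the files give them, are shown because these probes carry a steep change between arrays, a narrow range of levels and a change in the other direction.
CCL2: gaaattgcttttcctcttgaaccacagttc
CCL20: gtaaaaaagtcaagaacatgtaaaaactgt
CCL28: acggccataaaactccttattagagagtct

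RefSeq promoters on GRCh38.p14 were found for 4 of the 7 genes, namely CCL7, CCL8, CCL20 and CCL28. The 250 bases before the start site of CCL8 (chr17:34319185-34319434, plus strand), CCL20 (chr2:227813592-227813841, plus strand) and CCL28 (chr5:43412392-43412641, minus strand, the first of 2 listed starts) are printed because their genes differed in pattern across the arrays. Capitals mark a match to the NF-κB consensus or to the letters TATAAA, both searched on both strands.
CCL8: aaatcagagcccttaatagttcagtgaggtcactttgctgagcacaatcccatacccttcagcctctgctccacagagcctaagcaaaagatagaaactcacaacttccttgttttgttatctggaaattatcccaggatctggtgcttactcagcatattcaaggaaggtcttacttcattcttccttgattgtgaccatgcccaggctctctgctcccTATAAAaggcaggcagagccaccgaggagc
CCL20: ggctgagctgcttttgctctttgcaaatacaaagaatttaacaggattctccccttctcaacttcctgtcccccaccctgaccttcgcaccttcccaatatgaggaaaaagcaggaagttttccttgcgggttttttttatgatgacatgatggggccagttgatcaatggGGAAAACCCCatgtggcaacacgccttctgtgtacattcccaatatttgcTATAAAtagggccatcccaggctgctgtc
CCL28: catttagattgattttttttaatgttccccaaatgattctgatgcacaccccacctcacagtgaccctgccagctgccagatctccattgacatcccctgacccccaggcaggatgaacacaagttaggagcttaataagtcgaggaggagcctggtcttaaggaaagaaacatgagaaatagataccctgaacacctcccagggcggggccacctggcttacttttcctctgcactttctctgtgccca

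The NF-κB consensus was matched once in the promoter of CCL20, from -79 to -70 relative to the start site, and was not matched in those of CCL7, CCL8 and CCL28. Of the 35116 promoter windows of this length in the table, 1828 (5.21%) hold it. TATAAA lay at -30 in CCL7 and CCL8 and at -29 in CCL20, and was absent from both CCL28 windows. It occurs in 10.7% of all windows. A match describes the letters of the window and not binding of a factor.

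Before the values, the fit of the arrays to their labels has to be stated. Over the 17928 genes used for this comparison, HK-2 replicate 1 correlated with RPTEC/TERT1 replicate 2 at r = 0.980. The r of RPTEC/TERT1 replicate 1 and HK-2 replicate 2 was 0.976, whereas the arrays of one label correlated at 0.865 (HK-2) and 0.855 (RPTEC/TERT1). These are correlations across genes, which are not independent replicates. Arrays thus resembled an array of the other label most, and the levels below are given per array under the name each array carries. Whether labels were exchanged between arrays was not tested, and each value given by label holds only as far as the labels do. The replicate number coincides with the scan date, since replicate 1 of both labels was scanned on one day and replicate 2 on another. Between 59.2% and 64.9% of the 43118 non-control spots were well above background on each array, and the 75th percentile of the signal ran from 393 to 748.

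Of the tubule markers, 7 of 14 were well above background on all 4 arrays, while CUBN, SLC22A6 and HNF4A were not on any. The cadherin CDH16, a tubule marker, was at 4.83, -0.55, -0.55 and 4.97 on HK-2 replicates 1 and 2 and RPTEC/TERT1 replicates 1 and 2, in that order, and moved most of the 4 tubule markers named by the rule. In the same array order, PAX8 was at 4.13, 1.61, 2.79 and 3.73, KRT18 at 3.27, 2.42, 2.12 and 3.40, and KRT8 at 0.85, -0.74, -0.27 and 0.45. A summed level is the log2 of the sum of the unlogged levels of the listed markers, so the brightest markers weigh most. The summed tubule level was 5.92 and 3.46 on the HK-2 arrays and 3.80 and 5.90 on the RPTEC/TERT1 arrays. LRP2, named after its values were seen, was lower on HK-2 replicate 1 than on HK-2 replicate 2 (-1.62). Of the leukocyte markers, 3 of 7 were above background on all 4 arrays and 1 on none, and their summed level ran from 0.09 to 0.79 on the HK-2 arrays and from -0.05 to 1.15 on the RPTEC/TERT1 arrays. Of 4 endothelial markers 1 was above background on all arrays, with VWF and KDR on none and a summed level of -1.90 to -1.34 (HK-2) and -2.35 to -1.98 (RPTEC/TERT1). None of 4 fibroblast markers was above background on all arrays, and PDGFRA and PDGFRB were on none. The others, DCN and LUM, were above background on 1 array of each label. In the array order given for CDH16, DCN was at -5.37, -0.61, -0.87 and -5.27. LUM was at -5.37, 0.23, -0.30 and -5.37, where -5.37 is the floor described below. The sum of the 4 markers was -3.25 and 0.90 on the HK-2 arrays and 0.49 and -3.31 on the RPTEC/TERT1 arrays. The fibroblast and tubule sums thus moved between the arrays of each label, as several chemokines did, and their part in the chemokine levels was not tested.

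Levels are given as log2 of the processed signal over the 75th percentile of the same array, so that 0 is the signal of a spot at that percentile, and signals under a common floor were set to -5.37. In such bulk RNA, fewer cells of a kind and less RNA per cell cannot be told apart. A difference of 1 on this scale is a 2-fold difference in signal.

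CCL2, the monocyte attractant known as MCP-1, was at 7.36 on HK-2 replicate 1 and 7.32 on RPTEC/TERT1 replicate 2, but at -3.29 on HK-2 replicate 2 and -4.29 on RPTEC/TERT1 replicate 1. The arrays of each label therefore lay far apart and the labels overlapped. Its probe is printed 10 times on every array, and all 10 spots were well above background on each. The mean signals of the spots that were kept were 64738 and 76.9 on HK-2 replicates 1 and 2, and 25.1 and 68585 on RPTEC/TERT1 replicates 1 and 2. On HK-2 replicate 1, 6 spots were saturated, on RPTEC/TERT1 replicate 2 all 10 were, and on the other arrays none was. The bright levels are therefore lower bounds.

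The spots of the CCL2 probe on an array spread far less than the arrays did. Kept spots ran from 58399 to 72635 on HK-2 replicate 1 and from 65.3 to 85.1 on HK-2 replicate 2, with an SD on the log2 scale of 0.096 and 0.12. On the RPTEC/TERT1 arrays they ran from 19.5 to 29.2 for replicate 1 (SD 0.18) and from 61631 to 77501 for replicate 2 (SD 0.11). No dim spot came near a bright one. Spots of one array share a hybridisation and measure technical spread only.

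**Figure D1:**
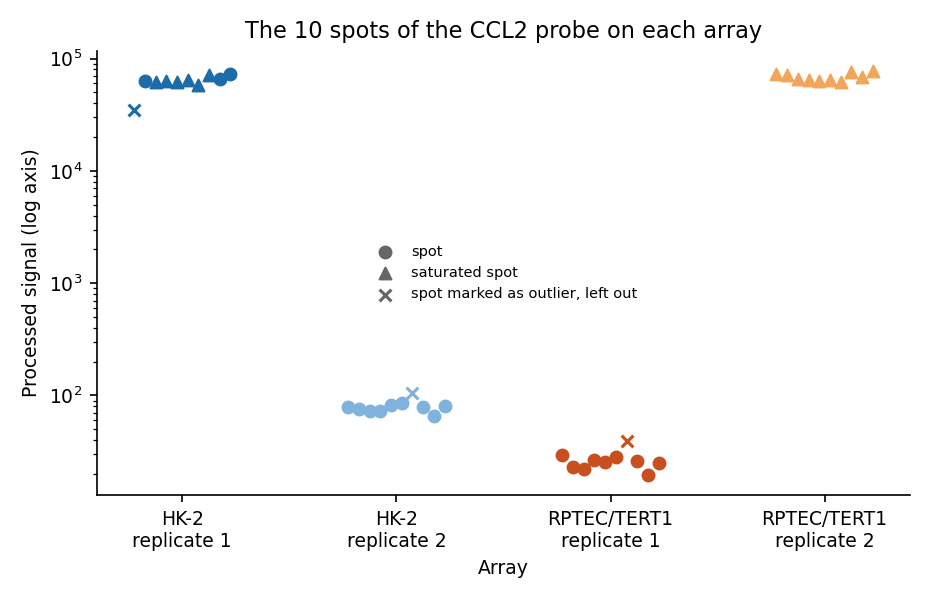
Processed signal (log axis) of each of the 10 spots of the CCL2 probe on the 4 arrays, with saturated spots as triangles and spots left out as outliers as crosses. Kept spots of replicate 1 of HK-2 and replicate 2 of RPTEC/TERT1 lie between 58399 and 77501, and those of the other arrays between 19.5 and 85.1.

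CCL7, or MCP-3, was not well above background on any array. Its signals were 10.9 and 0.678 on HK-2 replicates 1 and 2 and -1.39 and 17.0 on RPTEC/TERT1 replicates 1 and 2, and no order is read from them. CCL8, or MCP-2, was at -2.01 on HK-2 replicate 1 (signal 97.9) and at -2.19 on RPTEC/TERT1 replicate 2 (signal 94.1), and was at the floor and not well above background on both other arrays. CCL2 and CCL8 were therefore brighter on the same arrays, one within each label, although their probes differ.

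CCL5, or RANTES, attracts T cells and monocytes through several receptors. It stood at 0.48 on HK-2 replicate 1 and 0.23 on RPTEC/TERT1 replicate 2, with signals of 550.1 and 502.7. On replicate 2 of HK-2 and replicate 1 of RPTEC/TERT1 it was at the floor, with signals of -1.65 and 0.597. CCL5 and CCL8 were thus detected on 1 array of each label, and the levels on the detecting arrays lay close together for each gene.

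CCL20, the ligand of CCR6 that draws memory T cells and immature dendritic cells, varied least of the 6 detected members as processed here. It was at 5.51 and 5.62 on HK-2 replicates 1 and 2 and at 6.08 and 5.39 on RPTEC/TERT1 replicates 1 and 2. The signals were 17914, 36756, 33036 and 17975 in the same order, and no CCL20 spot was saturated. The levels of the labels overlapped, and all 4 lay within 0.69 of each other. Under other processing CCL20 passed 2-fold, with -1.29 between the HK-2 arrays after normexp correction and -1.22 between the RPTEC/TERT1 arrays after quantile normalization.

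CCL28, a mucosal chemokine of epithelial cells that binds CCR10 and CCR3, had the opposite order. Within HK-2 it was lower on replicate 1 (-2.57) than on replicate 2 (0.24), and within RPTEC/TERT1 it was lower on replicate 2 (-3.30) than on replicate 1 (-0.33). Its signals were 66.4, 880.0, 388.7 and 43.4 on HK-2 replicates 1 and 2 and RPTEC/TERT1 replicates 1 and 2, all well above background. CCL20 had this order too, over its narrow range.

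CX3CL1, or fractalkine, is made as a membrane protein on epithelial and endothelial cells, where it holds CX3CR1-bearing leukocytes, and is released by proteases. It was at 0.060 and -3.03 on HK-2 replicates 1 and 2 and at -4.06 and 0.21 on RPTEC/TERT1 replicates 1 and 2. It was well above background on all 4 arrays, with signals of 409.9, 91.8, 29.3 and 497.2. The order followed that of CCL2. Of the 7 members, 4 (CCL2, CCL20, CCL28 and CX3CL1) were well above background on all arrays, while HK-2 replicate 1 had 6 above background, RPTEC/TERT1 replicate 2 also 6, and the others 4 each.

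**Figure D2:**
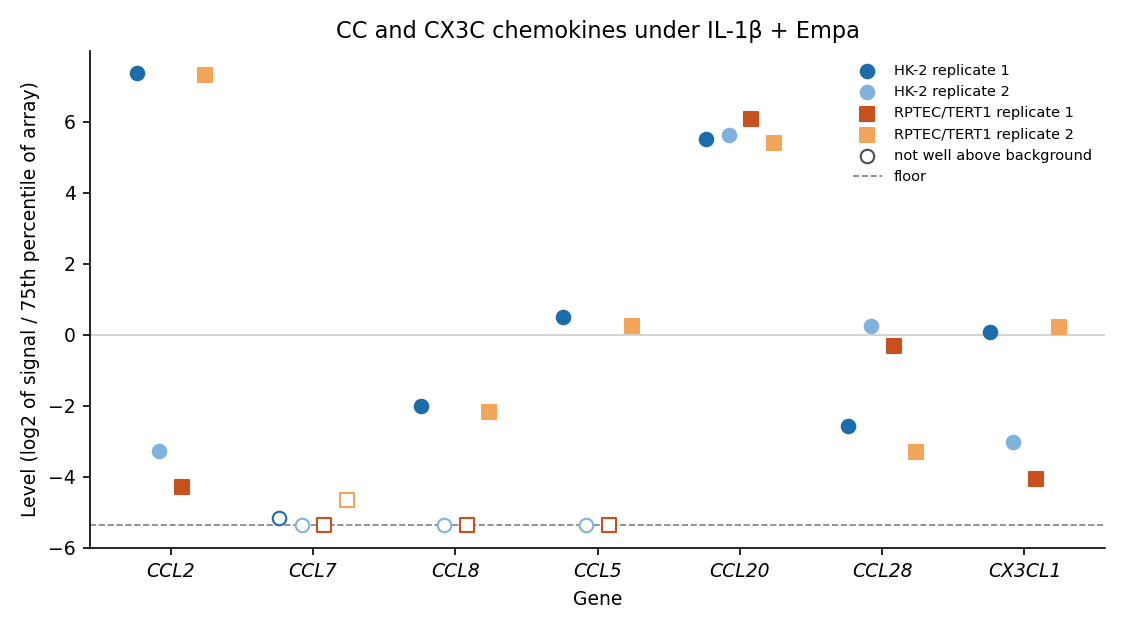
Level (log2 of signal over the 75th percentile of the array) of the 7 chemokines on each of the 4 arrays, with HK-2 as circles, RPTEC/TERT1 as squares, open symbols for probes not well above background and a dashed line at the floor of -5.37. For CCL2, CCL8, CCL5 and CX3CL1, replicate 1 is the higher HK-2 array and replicate 2 the higher RPTEC/TERT1 array, CCL28 is lower there, and CCL20 stays between 5.39 and 6.08.

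Between the labelled lines, differences were smaller than the spread of the arrays. CCL2 averaged 2.04 ± 7.53 (SD, n = 2) on the HK-2 arrays and 1.51 ± 8.21 (SD, n = 2) on the RPTEC/TERT1 arrays, a difference of 0.52 with a 95% interval of -14.11 to 15.16. CCL20 averaged 5.56 ± 0.078 and 5.74 ± 0.49 (SD, n = 2 each), a difference of -0.17 (-1.48 to 1.13). Of these intervals that of CCL20 was the narrowest, and it still holds differences of over 2-fold in both directions. CCL28 averaged -1.17 ± 1.98 and -1.82 ± 2.10 (difference 0.65, -3.30 to 4.60) and CX3CL1 -1.48 ± 2.18 and -1.92 ± 3.02 (difference 0.44, -4.57 to 5.45). CCL5 and CCL8 averaged -2.44 ± 4.14 and -3.69 ± 2.38 on the HK-2 arrays and -2.57 ± 3.96 and -3.78 ± 2.25 on the RPTEC/TERT1 arrays, with floor values included. The intervals were taken as the fit across all genes gave them.

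No gene of the array was called between the labels. The fit took 16468 genes that exceeded background on at least 2 arrays, 6 members among them, and limma called 0 (0.0%) at an adjusted p under 0.05, and 23 had an unadjusted p under 0.05. The methods name biological duplicates. Each array resembled one of the other label most, so the spread within a label is that between duplicate cultures only as far as the labels hold. For none of the members did the arrays of the labels not overlap, against 1181 genes (7.17%) of all tested.

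Without HK-2 replicate 1 the CCL2 difference between the labels was -4.80, and without HK-2 replicate 2 it was 5.85. Without RPTEC/TERT1 replicate 1 it was -5.28 and without RPTEC/TERT1 replicate 2 it was 6.33. Its sign was thus set by which array was left out. For CCL20 the difference ran from -0.52 without RPTEC/TERT1 replicate 2 to 0.17 without RPTEC/TERT1 replicate 1.

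Within replicate 1, the HK-2 array was above the RPTEC/TERT1 array by at least 11.65 for CCL2 (3214-fold), at least 5.86 for CCL5, at least 3.37 for CCL8 and 4.12 for CX3CL1 (17.4-fold). CCL28 was below it by 4.72-fold (-2.24) and CCL20 by 1.49-fold (-0.57). Within replicate 2 each of these signs turned, to -10.60 for CCL2 (at least 1556-fold), -5.60 for CCL5, -3.18 for CCL8, -3.24 for CX3CL1 (9.44-fold), 3.54 for CCL28 (11.6-fold) and 0.23 for CCL20 (1.17-fold). The values of CCL2, CCL5 and CCL8 are again bounds. Over 2-fold, 4 of the 6 tested members were higher and 1 lower on the HK-2 array within replicate 1, where 19.6% of all genes were higher and 16.4% lower. Within replicate 2, 1 was higher and 4 lower, with 16.0% and 17.8% of all genes. For 5 of the 6 members the difference exceeded 2-fold in opposite directions in the replicates, as it did for 27.4% of all genes tested. Nothing is read from these shares, since the levels chose the members.

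**Figure D3:**
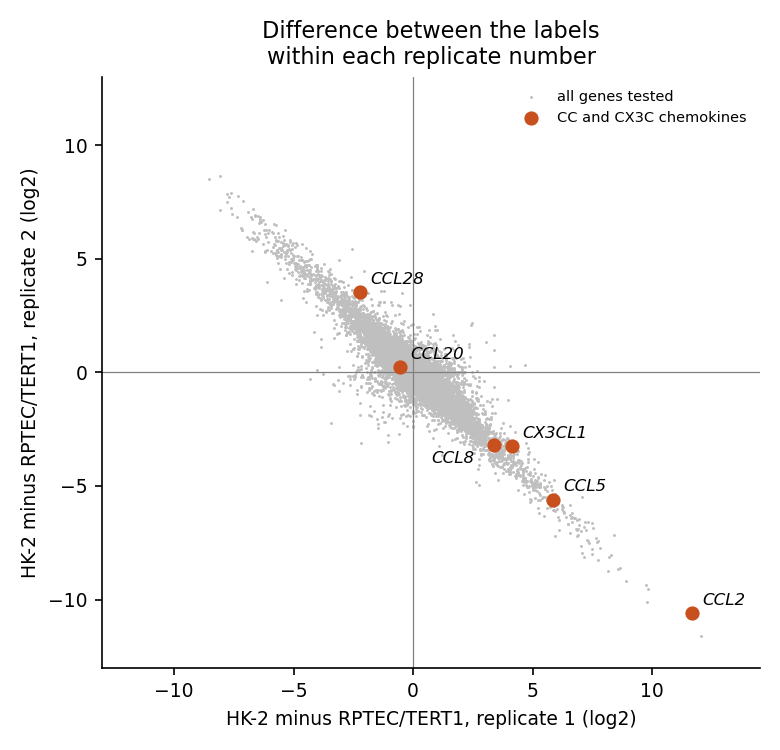
HK-2 minus RPTEC/TERT1 (log2) within replicate 1 (x axis) and within replicate 2 (y axis) for all 16468 genes tested in grey and the 6 tested chemokines in orange. CCL2, at 11.65 and -10.60, lies at the lower right, CCL28 at the upper left and CCL20 near 0 on both axes.

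Within HK-2, replicate 1 was above replicate 2 by at least 1602-fold for CCL2, at least 57.9-fold for CCL5, at least 10.3-fold for CCL8 and 8.49-fold for CX3CL1. It was below replicate 2 by 6.97-fold for CCL28 and by 1.08-fold for CCL20. Within RPTEC/TERT1, replicate 2 was above replicate 1 by at least 3121-fold for CCL2, at least 48.6-fold for CCL5, at least 9.09-fold for CCL8 and 19.3-fold for CX3CL1, and below it by 7.86-fold for CCL28 and 1.61-fold for CCL20. "At least" marks saturated spots for CCL2 and an array not well above background for CCL5 and CCL8, and holds for this processing only. With normexp background correction and with the deposited values, the log2 difference of CCL2 was 8.62 and 9.21 within HK-2 and 9.80 and 9.66 within RPTEC/TERT1. That of CCL5 was 3.96 and 3.72 within HK-2 and 3.34 and 3.11 within RPTEC/TERT1, and that of CCL8 was 3.64 and 2.96 within HK-2 and 1.76 and 1.58 within RPTEC/TERT1. All of these kept their direction. The order of the arrays within each label was therefore alike, with the replicate numbers swapped. In each of these comparisons, 4 members were over 2-fold higher and 1 was lower. Of all genes, 17.7% were higher and 16.4% lower within HK-2, and 22.1% and 18.4% within RPTEC/TERT1. These counts are not read against the shares, since the levels chose the members.

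The median absolute difference of the 6 members was 3.23 within HK-2 and 3.73 within RPTEC/TERT1, and over all genes it was 0.67 and 0.79. Nothing is read from this contrast, since the levels chose the members. CCL5 and CCL8 also entered the tested set only through the arrays where they were bright. Between arrays of unlike label and number the members lay closer. HK-2 replicate 1 minus RPTEC/TERT1 replicate 2 was 0.042 for CCL2, where both are saturated, and by 0.18 for CCL8, 0.25 for CCL5, 0.12 for CCL20, 0.74 for CCL28 and -0.15 for CX3CL1. None exceeded 2-fold, where 2.15% of all genes were higher and 2.75% lower on HK-2 replicate 1. HK-2 replicate 2 exceeded RPTEC/TERT1 replicate 1 by 2.01-fold for CCL2 and 2.05-fold for CX3CL1, and these were the only members over 2-fold, a limit that 3.92% of genes passed upward and 2.87% downward.

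**Figure D4:**
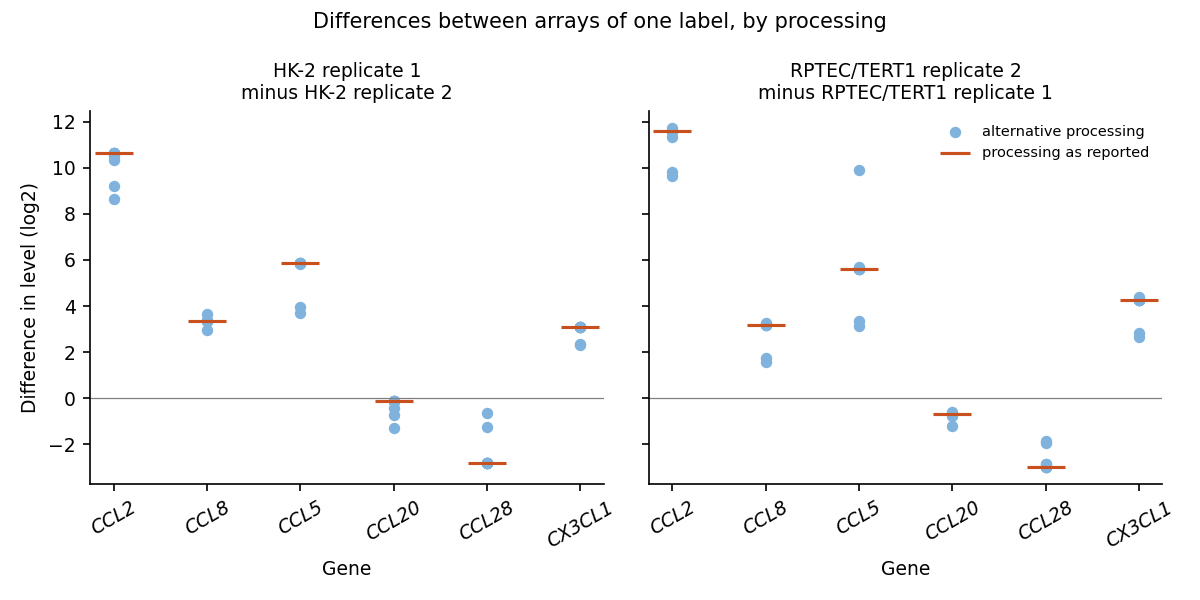
Difference in level (log2) between the arrays of one label for the 6 tested chemokines, with the processing used here as a line and each alternative processing as a point, for HK-2 (left) and RPTEC/TERT1 (right). The sign is the same under every alternative that gave a value, CCL28 within HK-2 moves to -0.63, and CCL20 lies nearest to 0 as processed here.

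Receptors for these ligands were followed as a list. Of 17 receptor genes on the array, 4 were well above background on all 4 arrays and 12 on none. CCR1, CCR2, CCR3 and CX3CR1, receptors for members described above, were among those not above background on any. CCR10, the receptor of CCL28, was at 0.76 and -2.15 on HK-2 replicates 1 and 2 and at -2.17 and 0.85 on RPTEC/TERT1 replicates 1 and 2, the reverse of the order of its ligand. CCR6, the receptor of CCL20, stayed between -1.15 and -0.86. Only 4 receptors were tested. Within HK-2 (replicate 1 minus replicate 2), 1 of them was over 2-fold higher and 0 lower. Within RPTEC/TERT1 (replicate 2 minus replicate 1), 3 were higher and 0 lower. CCR10 was the higher receptor within HK-2 and was among those higher within RPTEC/TERT1. The same limit was passed upward by 17.7% and downward by 16.4% of all genes within HK-2. For RPTEC/TERT1 these shares were 22.1% and 18.4%. Nothing is read from so few receptors.

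ADAM10 and ADAM17 shed CX3CL1, and DPP4 trims the amino terminus of chemokines such as CCL5. ADAM10 was at 0.62 and -0.93 on HK-2 replicates 1 and 2 and at -1.19 and 0.69 on RPTEC/TERT1 replicates 1 and 2, the same order as CX3CL1. ADAM17 was at 0.03, 0.35, 0.68 and -0.03, and DPP4 at 2.79, 1.16, 1.31 and 2.45. DPP4 and ADAM10 were over 2-fold higher on replicate 1 of HK-2 and on replicate 2 of RPTEC/TERT1 than on the other array of the label, and ADAM17 was within 2-fold.

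Of 20 other CC and XC ligands on the array, 3 were above background on all 4 arrays and 10 on none. CCL24, an eosinophil attractant, was at 3.07 and 2.77 on HK-2 replicates 1 and 2 and at 4.44 and 2.87 on RPTEC/TERT1 replicates 1 and 2. CCL3, named after its values were seen, was at 3.05 and -4.69 on the HK-2 arrays and at the floor and 2.47 on the RPTEC/TERT1 arrays. Its order is that of CCL5, whose receptors it shares. Of the 7 that were tested, CCL3, CCL3L3 and CCL4L2 were over 2-fold higher and 0 lower within HK-2, and the same 3 were higher and CCL24 lower within RPTEC/TERT1. Over all genes, 17.7% were higher and 16.4% lower within HK-2, and 22.1% and 18.4% within RPTEC/TERT1. The near-identical gene copies CCL3L3 and CCL4L2 had the same order, and their probes may share signal with CCL3 and CCL4. Both copies were tested only because of their bright arrays and lay at the floor elsewhere, so their direction was fixed by the filter.

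Of 22 tested genes of the IL-1 receptor and NF-κB pathway, 10 were over 2-fold higher and 2 lower on HK-2 replicate 1 than on HK-2 replicate 2, and 8 were higher and 1 lower on RPTEC/TERT1 replicate 2 than on replicate 1. The shares of all genes were 17.7% higher and 16.4% lower within HK-2, and 22.1% and 18.4% within RPTEC/TERT1. The receptor IL1R1 (2.69 and 3.17) and the feedback inhibitor TNFAIP3 (3.01 and 3.70) were among the higher in both labels, and the co-receptor IL1RAP (-1.29 and -1.47) among the lower, all 3 named after their values were seen. The other lower gene within HK-2 was the kinase IRAK1 (-1.03). The median difference over the list was 0.61 and 0.64, against 0.06 and 0.09 over all genes. NFKBIA, the inhibitor that NF-κB itself induces, was at 6.43 and 5.36 on HK-2 replicates 1 and 2 and at 5.13 and 6.52 on RPTEC/TERT1 replicates 1 and 2. RELB, a subunit of NF-κB, was at 4.50, 2.77, 2.64 and 4.50 on the same arrays. NFKBIZ and BCL3, regulators of NF-κB, did not have this order, with 2.80, 2.89, 3.37 and 2.39 for NFKBIZ and 2.25, 2.52, 2.17 and 2.74 for BCL3. The neutrophil-attracting CXCL ligands had a median difference of 4.28 within HK-2 and 4.02 within RPTEC/TERT1. In each, 5 of 5 tested were over 2-fold higher. CXCL6 was tested only because of its bright arrays and lay at the floor elsewhere, so its direction was fixed by the filter. The other 4 were well above background on all 4 arrays. No weight is given to this count, since the list was chosen with earlier results of these data known. CXCL1 was at 7.39 and -2.08 on the HK-2 arrays and at -2.33 and 7.28 on the RPTEC/TERT1 arrays. Of these 4 it differed most, by 9.47 within HK-2 and 9.61 within RPTEC/TERT1. CXCL5 differed by 4.28 and 4.02, CXCL2 by 2.74 and 2.64 and CXCL8 by 1.14 and 1.14. Of 6 interferon and STAT factors, 3 were over 2-fold higher and 1 lower within HK-2, and 2 were higher and 1 lower within RPTEC/TERT1. The shares of all genes in these comparisons are those given above, and nothing is read from so few factors.

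Patterns were compared after each gene was centred on its own mean, by the root mean square difference over the 4 arrays. For each member that varied by over 2 on the log2 scale, the nearest genes were sought among all genes tested. For CCL2 they were CXCL6 (0.52), TNFRSF11B (0.71) and the protease inhibitor SLPI (0.82). For CX3CL1 they included LIPH (0.055) and FXYD2 (0.12), for CCL5 ADAMTS5 (0.052) and TPM2 (0.069), for CCL8 PRUNE2 (0.018) and CPXM1 (0.019), and for CCL28 GSTM3 (0.13) and KCNK12 (0.14). The likeness of CCL8 and CCL5 rests in part on floor values, which have no order, and so does that of CCL2, whose neighbours lie at or next to the floor where it is dim and which is itself saturated where it is bright. CCL20 varied too little for this measure.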

How the data were processed

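Gene expression was measured in HK-2 and RPTEC/TERT1 cells under IL-1β plus Empa, on 2 arrays each, with groups, replicate numbers, doses and times taken from the labels. The members and gene lists were chosen with earlier results of these data known.

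The authors deposited for each array the intensities that Agilent Feature Extraction 9.5.3.1 wrote per spot, background-subtracted and detrended but not scaled between arrays. They also deposited a table of log2 values, made by steps not given in the sources used here. Its array medians were 8.33 and 7.14 (HK-2 replicates 1 and 2) and 6.75 and 6.72 (RPTEC/TERT1 replicates 1 and 2). It ran in the direction of the intensities, its further scaling and centring are unknown, and it served as an alternative. Probe positions are those of the files (GRCh37). For RNA isolation, the labels name the RNeasy kit and the methods the innuPREP kit.

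Control and outlier spots were removed. Each signal was scaled to its array's 75th percentile, raised to a floor of 0.0242 of it and converted to log2. That floor is the lowest scaled signal well above background on an array, at its highest over the 4 arrays. Spots were averaged per probe, and genes took the mean of the probes detected above background on 1 array or more. This gave 34127 probes and 25992 gene names, 25667 with a value on all 4 arrays. limma 3.58.1 (R 4.3.3) fitted HK-2 minus RPTEC/TERT1 over 16468 genes detected above background on 2 arrays or more, with Benjamini-Hochberg adjustment at 0.05. On data simulated for that comparison, with 200 of 16468 genes changed by 2 on the log2 scale, and an SD of 0.2 between arrays, 200 were recovered with 6 false calls. Arrays of one label differed more than that here (median absolute difference 0.67 and 0.79), so this recovery does not carry over to these data. Members and the 4 genes of each list with the highest mean level, among those well above background on all arrays, were named, exceptions are stated, and a few genes of these lists are not reported here by name. The number of arrays limits the precision. Alternatives were other background corrections, scalings, filters, floors and probe rules, leaving out each array, and the replicate number as a block.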

Additional observations from a re-analysis of the deposited data

Results flagged for a closer look

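The difference between the labels moved in opposite directions within replicate 1 and within replicate 2 for 5 members. The gap between both differences was 22.25 for CCL2 (11.65 and -10.60), 11.46 for CCL5 (5.86 and -5.60), 7.36 for CX3CL1 (4.12 and -3.24), 6.55 for CCL8 (3.37 and -3.18) and -5.78 for CCL28 (-2.24 and 3.54), on the log2 scale. The values of CCL2 (saturated) and of CCL5 and CCL8 (at the floor on 1 array of each pair) are bounds. With 1 array per label and replicate, these gaps were not tested. Of all genes tested, 27.4% differed by over 2-fold in opposite directions in the same way.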

How the results depend on the processing

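The count of genes called between the labels was 0 in each of the 15 alternatives, which says nothing of stability at this spread. The 4 that leave out 1 array take the spread from the other label alone, and the lone array is assumed to vary like it. The number with an unadjusted p under 0.05 was 23 and ran, in order of the alternatives, over 4 (normexp), 24 (quantile), 24 (median scaling), 3 (deposited log2 values), 245 (no filter), 6 (well above background on all arrays), 24 (brightest probe), 35 (no common floor) and 23 (outlier spots kept), and from 12 to 94 when 1 array was left out. With the replicate number as a block, 0 genes were called (5 unadjusted), and the CCL2 difference was 0.52 in both fits. Same-numbered arrays deviated in opposite directions (correlation of deviations -0.810), and nothing but the scan date is known to be shared under a number. With the numbers crossed, a pairing chosen after seeing the data, the calls were 0 and the unadjusted count 183. The slide as a block could not be fitted, as each array has its own slide.

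Without a common floor, 2 members rather than 4 were over 2-fold higher on HK-2 replicate 1 than on HK-2 replicate 2, since CCL5 and CCL8 had no positive signal there. The median of all genes shifted by 0.36 with normexp and 0.20 with the deposited values, against 0.017. CCL28 within HK-2 was -0.63 with normexp and -1.24 with the deposited values, against -2.80. CCL5 within RPTEC/TERT1 ran from 3.11 to 9.91. Leaving out 1 array moved the CCL2 difference between the labels from -5.28 to 6.33 and that of CCL28 from -0.84 to 2.14, in each case without a call. A probe near background and a saturated probe bound what a fold can show.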
